A study of Mus musculus with 6 samples.

Results

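The retinoic acid (RA) receptors, their retinoid X receptor (RXR) partners, the cellular RA binding proteins and the corepressor Nrip1 were followed through RA treatment of mouse embryoid bodies (EBs). The 9 genes, Rara, Rarb, Rarg, Rxra, Rxrb, Rxrg, Crabp1, Crabp2 and Nrip1, were taken by symbol from 19938 genes, each represented by its brightest probe set that carries 1 gene symbol. All 9 were measured, each by 1 such probe set, and 0 further probe sets carried a member together with another symbol. EBs are floating aggregates in which embryonic stem (ES) cells leave pluripotency and begin to form embryonic cell types. They were grown from the R1 mouse ES cell line, plated at 35000 cells per ml without the self-renewal factor Lif, and received 2 μM RA at 4 days of age. The groups were EBs just before RA (day 0), EBs after 3 days in RA (day 3) and EBs after 4 days in RA (day 4), with 2 Affymetrix arrays per day. All groups shared the R1 line and the medium without Lif, and no EBs of matching age without RA were analysed here, so the effects of RA and of time cannot be told apart. The study repeated the procedure to give 2 biological replicates of the day 0 and day 4 RNA that it sequenced. Whether the arrays used the same RNA is not stated. Neither that text nor the titles call the 2 arrays of a day biological replicates, so the spread behind each p-value may be technical.

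RA enters the nucleus bound to a small cytoplasmic carrier, Crabp2, and is handed to a RA receptor (RAR). The RAR sits on DNA as a dimer with an RXR, at pairs of a short hexamer in direct repeat. Without ligand the dimer holds corepressors, and with ligand it exchanges them for coactivators. Crabp1, the other carrier, is known for keeping RA in the cytoplasm and passing it to degrading enzymes. Nrip1 (RIP140) binds the ligand-loaded receptor and represses, so it acts as a brake on the activated dimer. Rarb is the textbook case of a receptor gene that is itself switched on by RA, through a direct repeat with a spacer of 5 bases in its promoter.

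Because the largest change was that of Rarb, the RefSeq promoter windows of the members (build GRCm38.p6) were read for that kind of repeat. Each window ran from 250 bases before a start site to 50 bases after it. Of the 9 members, 8 had windows, 16 in all, and Crabp2 had none in the table. The half-sites searched on both strands were AGGTCA and also AGTTCA, then GGGTCA and lastly GGTTCA, in direct repeat with a spacer of 1, 2 or 5 bases. Exactly 1 of the 16 windows held such a repeat, that of Rarb, where the repeat has a spacer of 5 bases (DR5) and begins 53 bases before the start site. A DR5 of these letters was present in 32 of 32851 windows of all genes (0.0974%), and a repeat of any of the 3 spacings in 193 (0.588%). A single half-site is common and was present in 8 of the 16 member windows and in 43.7% of all windows. The repeat and the 250 bases upstream of the start are shown for Rarb, beside those of Nrip1 and Rxrg, the members with the next largest rise and the largest fall at day 3. Where a gene has several start sites in the table, the first is shown. All are written 5′ to 3′ on the strand of the gene, and capitals mark half-sites on either strand, so that those on the other strand appear reversed and complemented.
Rarb repeat: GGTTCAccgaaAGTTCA
Rarb, chr14:16575477-16575726, minus strand: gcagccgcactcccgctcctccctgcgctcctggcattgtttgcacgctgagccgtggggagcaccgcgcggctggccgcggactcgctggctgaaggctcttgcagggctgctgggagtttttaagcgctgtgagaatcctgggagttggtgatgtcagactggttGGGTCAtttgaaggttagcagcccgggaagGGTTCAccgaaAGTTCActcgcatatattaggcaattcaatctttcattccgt
Nrip1, chr16:76373828-76374077, minus strand: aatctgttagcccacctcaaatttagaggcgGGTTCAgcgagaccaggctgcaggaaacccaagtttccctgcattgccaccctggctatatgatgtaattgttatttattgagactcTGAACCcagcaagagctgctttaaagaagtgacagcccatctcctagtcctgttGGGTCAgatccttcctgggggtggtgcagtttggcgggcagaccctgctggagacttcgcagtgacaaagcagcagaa
Rxrg, chr1:167598112-167598361, plus strand: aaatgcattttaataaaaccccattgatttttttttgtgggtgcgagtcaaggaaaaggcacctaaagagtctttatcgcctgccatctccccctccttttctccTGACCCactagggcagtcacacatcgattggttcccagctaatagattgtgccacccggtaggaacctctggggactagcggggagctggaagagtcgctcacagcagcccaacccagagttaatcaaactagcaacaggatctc
The Rarb stretch holds 3 half-sites, 2 of them in the repeat, the Nrip1 stretch 3 and the Rxrg stretch 1. A match of letters is a description of the window, not of bound receptor, and the arrays do not report which start site was used. The Rarb promoter was already known for a repeat of this spacing, so its match is no independent finding. A repeat outside the windows would be missed, so the lack of one in other members does not show that they have none. Some windows of a gene also overlap.

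Levels are log2 intensities from Robust Multichip Average (RMA) processing, on which a difference of 1 is a 2-fold change. The 2 arrays of a day correlated at 0.9986 to 0.9988 across genes, against 0.9534 to 0.9588 between day 0 and the later days. The labels give ES cells as the cell type of every sample. Of the markers of pluripotent cells, only Zfp42 was under the study's detection limit (a mean below 6 with an SD below 0.3), applied here over all 6 arrays. All 8 listed markers, Zfp42 included, fell by day 3 (limma, adjusted p of 0.05 or below), where 28.1% of all genes were called lower. At day 4, 7 of the 8 were called lower than at day 0, beside 25.6% of all genes. Klf4 was not (log2 change −0.006, adjusted p = 0.944, limma). In RNA of whole EBs, fewer cells of a type and less RNA per cell cannot be told apart. None of the 9 members met the rule for an undetectable gene.

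Of the 9 members, 8 changed between day 0 and day 4, 6 upwards and 2 downwards, by limma at an adjusted p of 0.05 or below. The same test called 51.5% of all genes, 25.9% higher and 25.6% lower, and at that background a call alone does not set a member apart. The median absolute log2 change was 0.94 among the members and 0.21 over all genes. All genes here include undetectable ones, while none of the members was undetectable. Between day 0 and day 3, 5 members rose, 3 fell and 1 was not called, where 51.9% of all genes were called (23.8% higher, 28.1% lower). Between day 3 and day 4, 5 rose, 1 fell and 3 were not called, where 28.1% of all genes were called (15.8% higher, 12.2% lower). A called change of at least 2-fold was met by Rarb and Rxra upwards and Rxrg downwards at day 4 (5.82% and 4.61% of all genes), by Rarb and Nrip1 upwards and Rxrg downwards at day 3 (5.14% and 4.09%), and by 0 members in the last day (0.376% and 0.391%). The arrays of the days compared did not overlap for 9 of 9 members at day 4 and at day 3 and for 8 of 9 in the last day, against 73%, 75.4% and 66.5% of all genes. The split of all genes depends on the scaling. For day 4 versus day 0, 50.2% of the called genes were higher as deposited, 64.6% after centring each array on the median of all probe sets and 30.7% after centring on the median of the named genes. These centrings moved the median gene to 0.11 and −0.15. All members called in these 2 comparisons with day 0 kept their direction and their call under both.

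**Figure D1:**
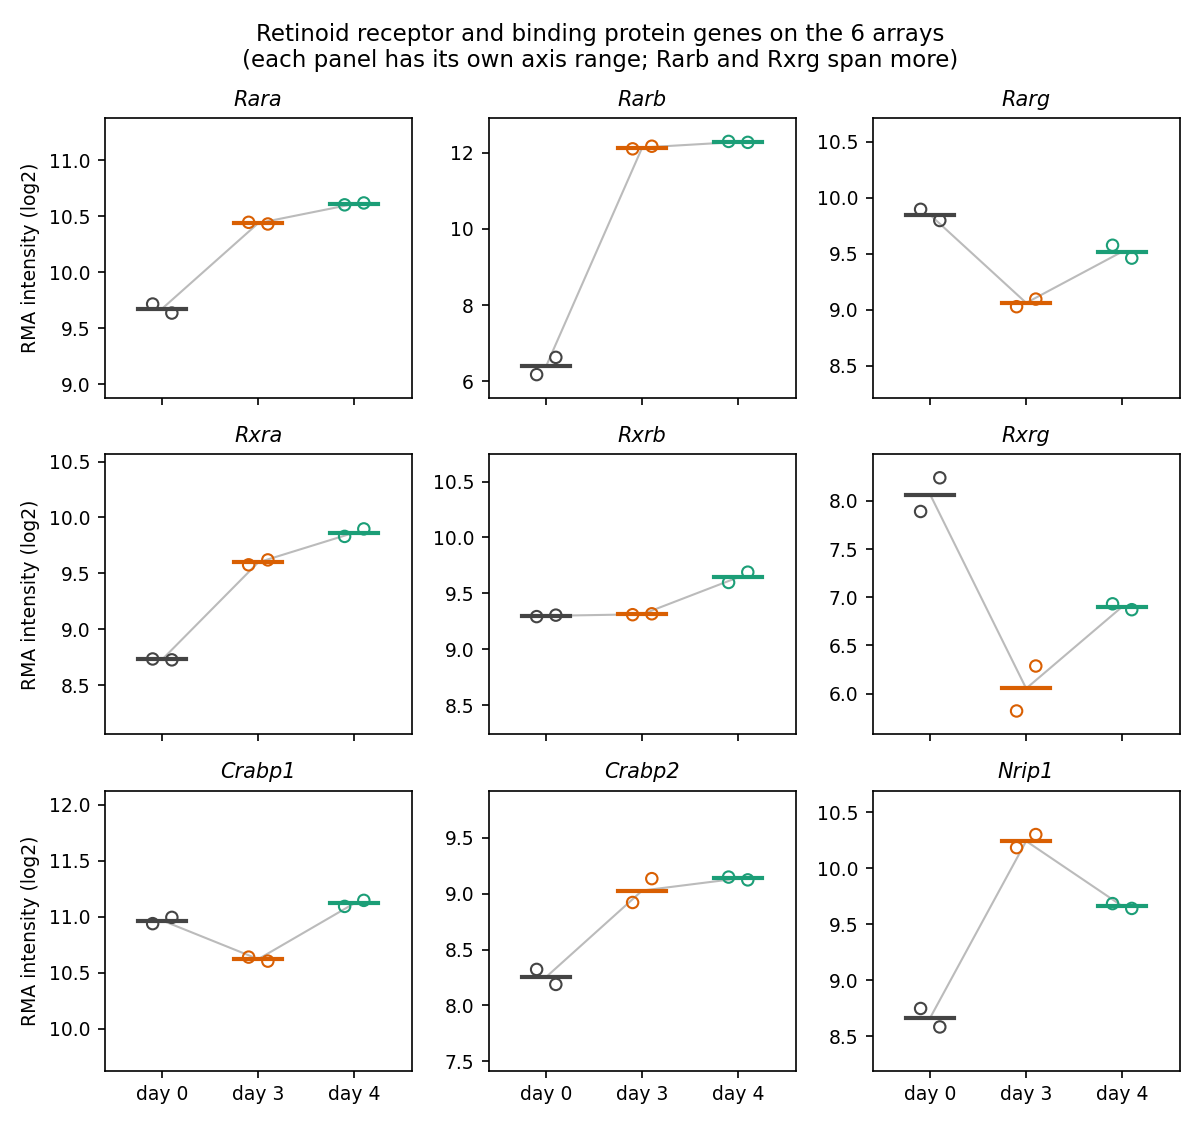
RMA intensity (log2, vertical axis, its range set per gene) of the 9 genes at day 0, day 3 and day 4. Open circles are the 2 arrays of a day, and coloured bars are their means, joined by grey lines. Rarb climbs from about 6.40 to 12.14 and holds, Nrip1 is highest at day 3, and Rarg, Rxrg and Crabp1 are lowest at day 3.

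Among the RA receptors, Rarb rose about 59.1-fold, Rara less than 2-fold, and Rarg fell. Rarb (probe set 10417713) read 6.18 and 6.63 on the arrays of day 0, 12.11 and 12.17 on those of day 3, and 12.30 and 12.28 on those of day 4. The day 0 arrays lay near the detection limit and apart from each other (SD 0.32), and the later arrays lay close together. Its log2 change was 5.74 (SE 0.13, 95% confidence interval 5.43 to 6.05) at day 3 and 5.89 (5.58 to 6.20) at day 4, with adjusted p of 1.3e-07 and 1.13e-07 (limma). This was rank 4 from the top of 19938 genes at day 3 and rank 1 at day 4. The last day added 0.15 (−0.16 to 0.46, adjusted p = 0.443), so the arrays place the rise within the first 3 days and leave a further change of up to 0.46 undecided.

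Rara, the receptor that most tissues carry (probe set 10381082), read 9.72 and 9.64 at day 0, 10.45 and 10.43 at day 3, then 10.60 and 10.62 at day 4. The arrays of the 3 days formed 3 separate steps. The log2 change was 0.76 (SE 0.05, adjusted p = 2.08e-05) at day 3 and 0.94 (SE 0.05, adjusted p = 6.56e-06, limma) at day 4, a rise of 1.91-fold. The step between day 3 and day 4, 0.17 (0.04 to 0.30), missed the threshold at an adjusted p of 0.0540 and passed it under 4 of 15 alternatives, with a range of 0.00543 to 0.172.

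Rarg, the receptor typical of ES cells and of the early tail end of the embryo (probe set 10432972), went the other way. It read 9.90 and 9.80 at day 0, 9.03 and 9.10 at day 3, then 9.58 and 9.46 at day 4. The day 3 arrays were the lowest and those of day 4 lay between the other days. The fall was 0.79 on the log2 scale at day 3 (log2 change −0.79, SE 0.07, adjusted p = 4.97e-05), and a rise of 0.46 (SE 0.07, adjusted p = 0.00337, limma) followed within the last day. At day 4 the net change was −0.33 (−0.49 to −0.17).

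The RXR genes, whose products are the shared partners of RAR and of several other nuclear receptors, also parted. Rxra (probe set 10470446), the form most widely used as RAR partner, read 8.74 and 8.73 at day 0, 9.58 and 9.62 at day 3, then 9.83 and 9.90 at day 4. Each later day lay above the one before. Its log2 change was 0.87 (SE 0.05, adjusted p = 1.07e-05) at day 3 and 1.13 (SE 0.05, adjusted p = 2.58e-06, limma) at day 4, or 2.19-fold. The last day added 0.27 (SE 0.05, adjusted p = 0.0115), and this call ended on leaving out day 3 replicate 1 (0.24, adjusted p = 0.0736) or day 4 replicate 2 (0.23, adjusted p = 0.0670).

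Rxrb (probe set 10444137), which is expressed in most cells, read 9.29 and 9.31 at day 0, 9.31 and 9.32 at day 3, then 9.60 and 9.69 at day 4. Days 0 and 3 were nearly the same and both day 4 arrays stood above them. The change at day 3 was 0.01 (−0.12 to 0.14, adjusted p = 0.853), with a sign that turned under either median centring (−0.01 and −0.09). Against day 3 it rose by 0.33 (SE 0.06, adjusted p = 0.00578, limma) within the last day. Its change from day 0 to day 4 was 0.34 (adjusted p = 0.00135).

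Rxrg (probe set 10351430), the RXR of narrow expression, known from muscle and parts of the nervous system, had the largest fall of the 9 genes. It read 7.89 and 8.24 at day 0, 5.82 and 6.29 at day 3, then 6.93 and 6.87 at day 4. The arrays of the 3 days did not overlap, though the SD within day 0 (0.25) and within day 3 (0.33) was wide, as it was for Rarb at day 0. The log2 change was −2.01 (SE 0.16, −2.40 to −1.63, adjusted p = 4.01e-05) at day 3, a 4.04-fold fall, and −1.16 (SE 0.16, adjusted p = 6.5e-04, limma) at day 4. Between these days it rose by 0.85 (0.46 to 1.23, adjusted p = 0.00951) and stood at rank 121 from the top of all genes. Leaving out either array of day 4 ended that call, with 0.82 (adjusted p = 0.0519) without replicate 1 and 0.88 (adjusted p = 0.0503) without replicate 2. The day 3 mean of 6.05 lay near the detection limit.

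**Figure D2:**
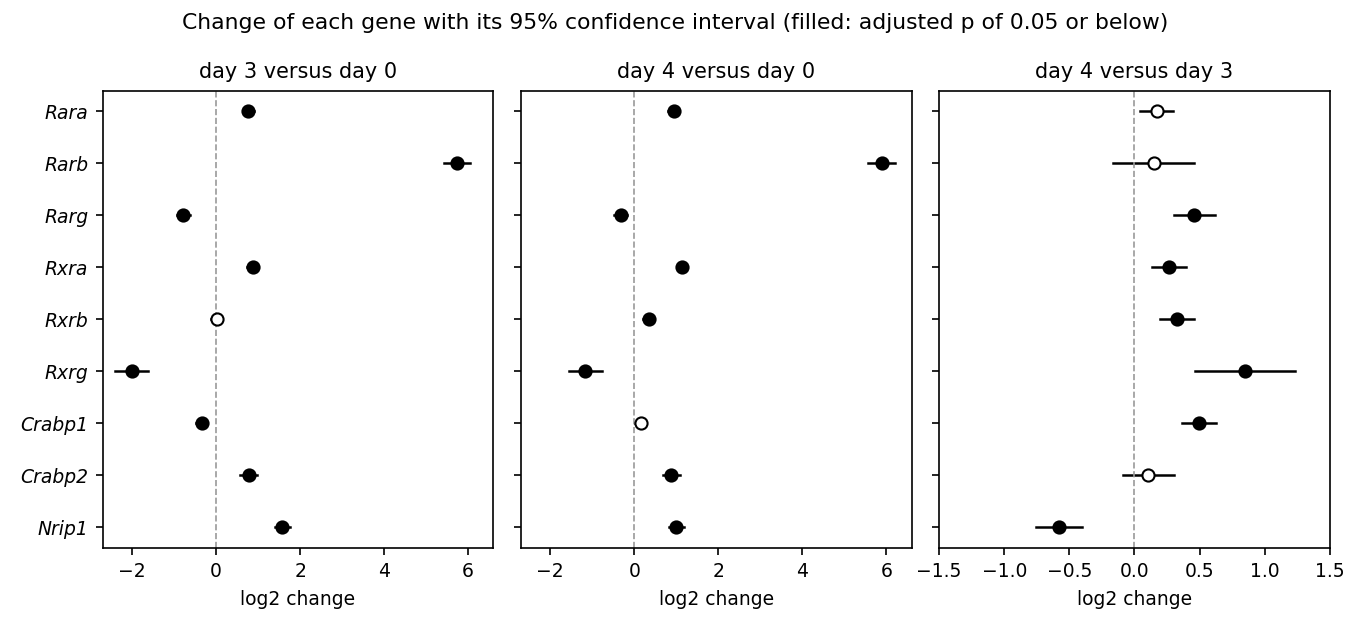
Log2 change of each gene (horizontal axis) in the 3 comparisons, with bars for the 95% confidence interval of the limma fit and filled points for an adjusted p of 0.05 or below. The right panel has a narrower axis. Rarb stands at 5.74 and 5.89 against day 0, Rxrg at −2.01 and −1.16, and in the last day Rxrg (0.85), Crabp1 (0.50) and Rarg (0.46) lie to the right while Nrip1 (−0.58) lies to the left.

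The RA binding proteins differed in shape. Crabp2 (probe set 10493108), the carrier that delivers RA to the receptor, read 8.32 and 8.19 at day 0, 8.92 and 9.13 at day 3, then 9.15 and 9.12 at day 4. The day 0 arrays were below all others, and those of day 3 and day 4 overlapped. Crabp2 rose by 0.77 (SE 0.08, adjusted p = 1.78e-04) at day 3 and by 0.88 (SE 0.08, adjusted p = 7.92e-05, limma) at day 4, and the difference between these days was 0.11 (−0.09 to 0.30, adjusted p = 0.378).

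Crabp1 (probe set 10585438), a carrier typical of hindbrain and neural crest in the embryo, read 10.94 and 10.99 at day 0, 10.64 and 10.60 at day 3, then 11.09 and 11.15 at day 4. The day 3 arrays were the lowest and the day 4 arrays the highest. The log2 change at day 3 was −0.35 (SE 0.05, adjusted p = 0.00131, limma) and a rise of 0.50 (SE 0.05, adjusted p = 0.00124) followed by day 4. The net change at day 4, 0.15 (0.03 to 0.28), was just short of the threshold at an adjusted p of 0.0503, with 5 of 15 alternatives placing it under 0.05 and a range of 0.00444 to 0.919 over them, the highest with centring on the named genes (0.01).

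Nrip1 (probe set 10440406), the ligand-dependent corepressor, read 8.75 and 8.58 at day 0, 10.18 and 10.30 at day 3, then 9.68 and 9.64 at day 4. Both day 3 arrays were above both of day 4, and these above both of day 0. The log2 change was 1.58 (SE 0.07, 1.40 to 1.75, adjusted p = 2.71e-06) at day 3, a 2.99-fold rise, and 0.998 (SE 0.07, adjusted p = 2.2e-05, limma) at day 4. In the last day it fell by 0.58 on the log2 scale (SE 0.07, adjusted p = 0.00211) and stood at rank 424 from the bottom of all genes. Among the members it was the only one called down in that interval.

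By the order of the days, the members fell into 4 shapes, read from the calls above. Rarb, Crabp2, Rara and Rxra were higher at both later days than at day 0, and only for Rxra was the last step called. Rarg, Rxrg and Crabp1 were lowest at day 3, with a called fall and a called rise after it. Nrip1 was the reverse of these, highest at day 3. Rxrb stood alone, with a called step only at the end. The comparisons share arrays, so a high or low day 3 array moves 2 of them in opposite directions, and the steps are not independent.

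The summed levels of neural markers were lowest at day 3, as were Rarg, Rxrg and Crabp1, though each sum rests largely on 1 gene. The summed level of the 7 measured neuron markers (log2 of the summed intensities) was 11.08 to 11.16 at day 0, 10.60 at day 3 on both arrays and 11.13 to 11.22 at day 4. That of 6 neural progenitor markers was 11.56 to 11.57, then 10.90 to 10.93, then 11.23 on both arrays. Of all genes, 23.8% were called higher and 28.1% lower at day 3, and 25.9% and 25.6% at day 4. In the last day these shares were 15.8% and 12.2%, and the counts of called markers stand beside them. Of the neuron list, 2 rose and 3 fell at day 3, and 2 rose and 1 fell in the last day. Of the progenitor list, 2 rose and 2 fell at day 3, and 3 rose and 1 fell in the last day, so neither list moved as one. The markers with the largest fall and the largest rise at day 3 in each list were named after their values were seen. In the neuron list these were the microtubule regulator Stmn2 (log2 change −1.84) and the migration gene Dcx (2.49). In the progenitor list they were the radial glia lipid carrier Fabp7 (−1.69) and the intermediate filament gene Nes (0.49). Stmn2 and Fabp7 were also the brightest markers of their lists at day 0 (means of 10.63 and 10.92), so the dips of the sums largely follow them. The median change at day 3 was −0.035 in the neuron list and −0.009 in the progenitor list. The neuronal RNA-binding protein gene Elavl4 was undetectable by the study's rule. Red cell and endothelium markers had their highest summed levels at day 3, as did Nrip1, and cardiac markers their lowest. The summed level of 5 red cell markers was 9.94 to 10.20 at day 0, 14.28 to 14.45 at day 3 and 12.43 to 12.65 at day 4, with 4 of 5 rising at day 3 and 5 of 5 falling in the last day, beside the peak of Nrip1. That of 6 endothelium markers was 12.19 to 12.24, then 12.58 to 12.68, then 12.38 to 12.43, with 4 rising and 1 falling at day 3 and 0 rising and 3 falling in the last day. That of 6 cardiac markers, of which Myh6 was undetectable, was 10.63 to 10.66, then 10.20 to 10.23, then 10.32 to 10.33, with 1 rising and 2 falling at day 3 and 0 called in the last day by limma. The summed level of 8 mesenchyme and fibroblast markers went from 11.07 to 11.11 at day 0 to 12.40 to 12.44 at day 3 and 12.61 to 12.72 at day 4, and 7 of these 8 rose at either day, beside the rises of Rarb, Rara, Rxra and Crabp2. That of 8 visceral and primitive endoderm markers, of which Afp was undetectable, was 11.958 to 12.002 at day 0. It was 13.45 on both arrays of day 3 and 13.44 on both of day 4, beside the same rises of members. At day 3, 4 of these markers rose and 2 fell, and this sum too follows its bright members. Gata4 went from 9.79 at day 0 to 11.56 at day 3, and the dimmer Apoa1 from 6.86 to 8.59 and Ttr from 6.43 to 7.14. Amn (6.931 to 6.848), Cubn (6.815 to 6.514) and Afp (5.559 to 5.475) did not rise. The primitive streak markers fell from 12.95 to 12.98 at day 0 to 9.31 to 9.37 at day 3, and 4 of the 6 measured were called lower. Those of pluripotent cells fell from 12.13 to 12.20 at day 0 to 9.84 to 9.98 at day 3. Both falls stood beside those of Rarg, Rxrg and Crabp1 at day 3. At day 4 the sums were 9.503 to 9.595 and 9.77 to 10.02, while Rarg, Rxrg and Crabp1 had risen by 0.46, 0.85 and 0.50 in the last day. Against day 0 these members then stood at −0.33, −1.16 and 0.15. The part of these cell types in the changes of the members was not tested.

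The genes most like a member were sought for the 4 members whose day means differed by at least 1 on the log2 scale. Likeness was the root mean square difference between profiles over the 6 arrays, each centred on its own mean, and it is given as a description with no test. Nearest to Rarb were Nr2f2 (difference 0.23), an orphan receptor gene that RA is known to induce, Hoxa5 (0.30), a homeobox gene of the cervical region, and Alcam (0.31), an adhesion molecule. Their day 4 changes were 5.70, 5.35 and 5.39. Nearest to Rxra were Smim19 (0.03), Rhou (0.03), a small GTPase, and Jmjd8 (0.04). Nearest to Rxrg were S100a6 (0.15), a calcium-binding protein, Tmem114 (0.20) and the chemokine receptor gene Cxcr4 (0.20), all lowest at day 3. Nearest to Nrip1 were Chrna5 (0.05), a nicotinic receptor subunit, the motor protein gene Myo6 (0.07) and Rev3l (0.08), the catalytic subunit of a DNA polymerase for damaged templates. With 6 arrays in 3 days, such likeness rests on 3 day means.

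**Figure D3:**
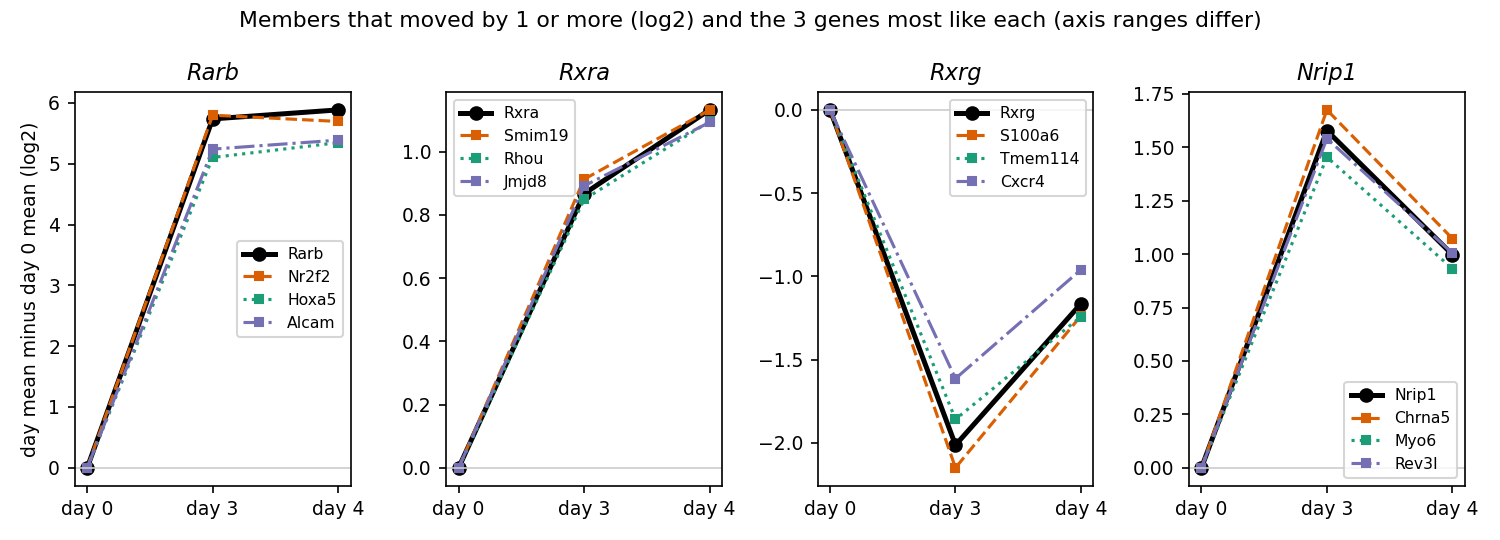
Day mean minus day 0 mean (log2, vertical axis) at day 0, day 3 and day 4 for Rarb, Rxra, Rxrg and Nrip1 (black) and for the 3 genes most like each (coloured, dashed or dotted). Axis ranges differ between panels. The genes beside Rxrg dip to between −2.15 and −1.61 at day 3, and those beside Nrip1 peak at 1.45 to 1.68.

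The genes around the receptors were read from 5 lists. Of the 22 listed coregulators, 20 were measured. At day 3, 12 of the 20 rose and 2 fell, beside 23.8% and 28.1% of all genes, with a median change of 0.24 against −0.05 over all genes, and 10 to 13 rose and 1 to 3 fell under the other scalings. In the last day 0 rose and 11 fell, beside 15.8% and 12.2% of all genes, with a median of −0.22 against 0.05. By day 4, 7 rose and 6 fell against day 0, beside 25.9% and 25.6% of all genes, and the median was 0.02. This balance turned with the scaling, to 9 rising and 3 falling after centring on all probe sets. After centring on the named genes, 4 rose and 9 fell. Lcor, another ligand-dependent corepressor, and the coactivator Ncoa1 led, at 1.63 and 0.99 at day 3 and 1.251 and 0.90 at day 4. Lcor then fell like Nrip1 (−0.37, adjusted p = 0.00508, limma), while Ncoa1 changed by −0.09 (adjusted p = 0.282). The acetyltransferase Ep300 went up by 0.20 at day 3 and down by 0.55 in the last day, so that it ended 0.36 below day 0 (log2 change −0.36). Ctbp2, a corepressor that binds Nrip1, fell to −0.33, while its close relative Ctbp1 rose by 0.70 at day 4 (adjusted p = 2.69e-05, limma). The arginine methyltransferase Prmt1 had a day 4 change of 0.01 (adjusted p = 0.918). The falls of the last day depend on the scaling in number, with 6 falling and 3 rising after centring on the median of all probe sets and 14 falling after centring on the named genes, and the list median stayed below that of all genes in both (−0.09 against 0.18 and −0.26 against 0.001).

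Of 13 other receptors that pair with RXR, 12 were measured. At day 4, 5 rose and 2 fell, beside 25.9% and 25.6% of all genes. The vitamin D receptor gene Vdr (1.61, SE 0.14) and the thyroid hormone receptor gene Thra (1.198, SE 0.05) rose most, and both also rose within the last day (1.02 and 0.52). The immediate early gene Nr4a1 (−2.55, SE 0.07) and the oxysterol receptor gene Nr1h3 (−0.40) fell, and Thrb differed by 0.005 (adjusted p = 0.970, limma). At day 3, 4 of the 12 rose and 2 fell, beside 23.8% and 28.1% of all genes. With centring on the named genes, 3 rose and 6 fell. In the last day 5 rose and 1 fell, beside 15.8% and 12.2% of all genes. After centring on all probe sets, 9 rose and 0 fell.

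Of 9 other retinoid carriers and uptake genes, 8 were measured. At day 3 as at day 4, 3 rose and 2 fell, where 51.9% and 51.5% of all genes were called. With centring on all probe sets, 5 rose and 1 fell at day 4. In the last day 0 of 8 were called by limma, beside 28.1% of all genes. Stra6, the retinol uptake receptor, rose by 2.92 at day 3 and 3.00 (SE 0.15) at day 4, and Rbp4, the plasma retinol carrier, by 0.81 at day 4 (adjusted p = 0.00906, limma). Stra6l (−0.78) and Rbp7 (−0.23) fell, and the visual cycle carrier Rlbp1 differed by −0.04 (adjusted p = 0.667).

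Of 12 enzymes of retinoid metabolism, 6 rose and 3 fell at day 4, beside 25.9% and 25.6% of all genes. With centring on the named genes, 5 rose and 6 fell. At day 3, 5 rose and 4 fell, beside 23.8% and 28.1% of all genes. The retinaldehyde reductase Dhrs3 rose by 5.00 at day 3 and 5.27 at day 4. Aldh1a2, which makes RA, stood at 3.98 at day 3 and fell by 0.67 on the log2 scale in the last day (log2 change −0.67, adjusted p = 0.00113, limma). Cyp26a1, which degrades RA, fell (−2.32), as did the retinol dehydrogenase Rdh11 (−0.62), and Dhrs9 differed by −0.07 (adjusted p = 0.462). Cyp26b1, which also degrades RA, went the other way and rose by 3.16 at day 4 (adjusted p = 1.49e-06, limma). The genes for RA breakdown thus did not move as one. Of 17 measured textbook RA response genes out of 20 listed, 13 rose and 1, Cyp26a1, fell at day 4. At day 3, 14 rose and 2 fell. Of all genes, 25.9% were called higher at day 4 and 23.8% at day 3. Under every scaling tried, 13 or 14 of the list rose in both comparisons. At day 4, Nr2f2 (5.70) and Dhrs3 had the largest rises of this list. Hoxb1, an early hindbrain Hox gene, rose by 1.38 at day 3 and fell by 1.35 on the log2 scale in the last day, which left it at 0.04 against day 0 (adjusted p = 0.890). The median change of the list was 1.96 at day 4 against 0.00 over all genes.

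**Figure D4:**
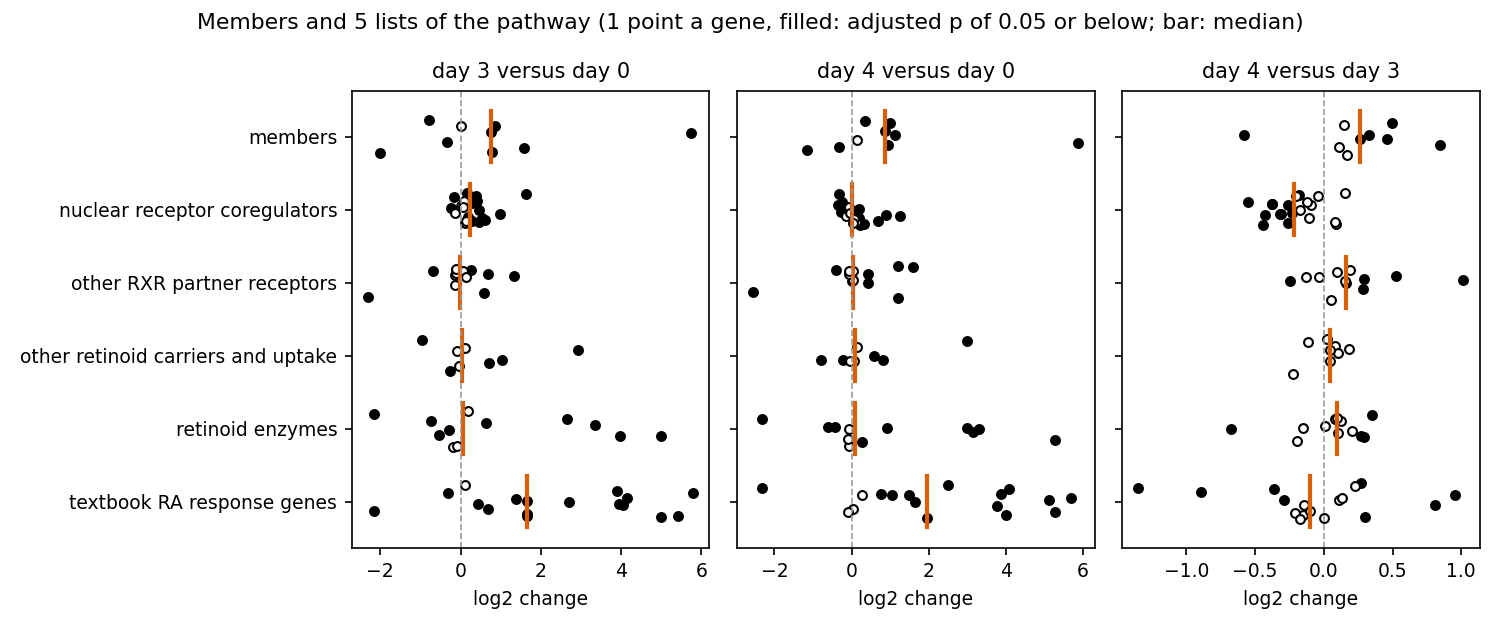
Log2 change (horizontal axis) of the 9 members and of the measured genes of 5 lists in the 3 comparisons. Each point is a gene, filled at an adjusted p of 0.05 or below, and the orange bar is the median of the list. The right panel has a narrower axis. The coregulator median moves from 0.24 at day 3 to −0.22 in the last day, while that of the members is 0.76 and 0.26.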

How the data were processed

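Each sample was RNA of R1 EBs on 1 Affymetrix Mouse Gene 1.0 ST array. The authors deposited log2 values from RMA in Partek, which subtracts background, equalises the distributions of the arrays and summarises probe sets, and which understates changes of dim genes. The software version and a genome build for the arrays are not given in the sources used here. Quantile equalisation hides a change in total RNA per cell, and array number, not read depth, limits the precision.

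Of 35557 probe sets, 21789 had 1 symbol in the platform annotation, 1621 had several and 12147 were unnamed here. The brightest single-symbol probe set stood for each of 19938 genes, and 21698 probe sets matched a gene number in RefSeq (GRCm38.p6), which served for names. Differences were tested with limma 3.58.1 in R 4.3.3 (lmFit, eBayes) on all 6 arrays with a mean per day, 3 residual and 4.07 prior degrees of freedom. Tests were two-sided, with Benjamini-Hochberg adjustment over all 19938 genes and calls at an adjusted p of 0.05 or below. The fit was tested on simulated data. The members and lists were chosen with earlier results of these data known. Named genes were the 9 members, the 3 genes most like each member that moved by 1 or more (log2), leaving out predicted genes, clone names, olfactory receptors and small RNAs, and per list the 2 largest called rises, the 2 largest called falls and the smallest change at day 4. Cyp26b1, Ctbp1 and single markers were named in addition, after their values were seen. Marker lists were otherwise read as counts and summed levels. Of 146 list entries, 11 had no named probe set. Of 15 alternatives, centring on the named genes was added after seeing the data.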

Additional observations from a re-analysis of the deposited data

How the results depend on the processing

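Over the 15 alternatives, the number of members called stayed within 1.5 times of that given for each comparison, and only the change of Rxrb at day 3 changed sign, to −0.009 with centring on all probe sets and −0.086 with centring on the named genes. For day 4 versus day 3, the number of genes called moved from 5593 to 10210 with median centring on all probe sets (86.5% of them higher, against 56.4%), and ranged from 2728 to 5276 when 1 array was left out, with 2728 without day 3 replicate 1, 3650 without day 3 replicate 2 and 3005 without day 4 replicate 2. For the other comparisons it ranged from 8741 to 10212 (day 3 versus day 0) and from 9073 to 9973 (day 4 versus day 0) when 1 array was left out. An array that is alone in its day is assumed there to vary like the others. The upper end of each range comes from leaving out an array of the day not compared. Either such omission gives the same fit as the 4 arrays of the 2 days alone, so the counts over 15 alternatives include repeats of that fit. Other calls of members that changed were those of Rara, Rxra and Rxrg between day 3 and day 4 and of Crabp1 at day 4. The causes were not tested. Whether arrays of equal replicate number share a culture is not stated. The differences between replicates 2 and 1 correlated at 0.034 to 0.083 between days, across genes. A low correlation cannot decide this, since array noise lowers it too. With the replicate number as a block, 10251, 10359 and 5469 genes were called at day 4, at day 3 and in the last day, and the block changed no call of a member. Low signal limits Rarb at day 0 and Rxrg at day 3, whose means lay near 6.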
